A study of Mus musculus with 18 samples.

Results

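Mouse embryonic fibroblasts labelled Ago2-/- were compared with fibroblasts labelled Ago2+/+ after both had been treated with tunicamycin. The comparison holds 6 of the 18 libraries of the series, 3 for each group, taken by the pair of group names in the deposited table, and 51499 loci. The other 12 libraries come from cells of the same labels under the solvent DMSO or under thapsigargin at 500 nM. AGO2 is the Argonaute protein that binds a small RNA and can cut the RNA paired with it. The series asked whether it lowers particular mRNAs while the endoplasmic reticulum (ER) is under stress. Tunicamycin blocks DPAGT1, the enzyme that starts the sugar chain of N-linked glycosylation, so that secreted and membrane proteins leave the ribosome without it and fold poorly. The unfolded protein response then raises chaperones such as the one made by Hspa5 and, through ATF4, the factor CHOP made by Ddit3. Fibroblasts are cells that build the extracellular matrix from collagens and proteoglycans, and under stretch or TGF-beta they can take up the contractile proteins of smooth muscle.

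Levels are given in FPKM, the number of sequenced fragments of a transcript per its length and per the mapped fragments in all. The deposited table gives 1 FPKM for each group, estimated by the authors over its 3 libraries. No value below therefore carries a replicate spread, no test was run on it, and a difference describes these pools only. The difference is log2(FPKM + 1) in the pool labelled Ago2-/- minus that in the pool labelled Ago2+/+, which understates the change of a gene with a low level. A locus is called higher or lower when that difference reaches 1, a 2-fold step. Of the 51499 loci, 11928 had a mean of at least 1 FPKM over the 6 groups of the series and were counted. The depth of the libraries is unknown, since the table holds no counts.

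The genotype labels were examined first. Ago2 (chr15:73090392-73184840, minus strand, GRCm38) was at 5.75 FPKM in the pool labelled Ago2+/+ tunicamycin and at 15.5 FPKM in the pool labelled Ago2-/- tunicamycin. The gene named as deleted was thus higher in the pool labelled as lacking it, by 1.29 on the log2(FPKM + 1) scale. Under DMSO its level was 22.1 FPKM in the pool labelled Ago2+/+ and 5.61 in the pool labelled Ago2-/-, and under thapsigargin 17.0 and 20.7. The exons that the deletion removes are not named in the labels or methods, and any exon left in place would still add to this level. Labels also conflicted within libraries. In replicate 2 of the pool labelled Ago2+/+ tunicamycin the source name gives Ago2-/- and the genotype field Ago2+/+. With pooled values that library could not be left out. The direction of every difference below follows the group names and cannot be told apart from an exchange of libraries or of values after culture. The reporting summary of the study states that no cell line was authenticated, but that the Ago2-/- cells were checked for loss of the protein on western blots. That check bears on the cells and not on the libraries.

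Sex-linked genes separated the groups as well. Ddx3y, Eif2s3y, Kdm5d and Uty, genes of the Y chromosome, were at 24.7, 30.3, 7.97 and 6.64 FPKM in the pool labelled Ago2-/- tunicamycin. All 4 were listed at 0 in the pool labelled Ago2+/+ tunicamycin. Xist, the RNA that coats the inactive X chromosome of female cells and lies in 1 locus with Gm27733 and Gm27927, was at 0.0061 and 0.057 FPKM. Neither tunicamycin pool thus held Xist at an appreciable level, and of these pools only that labelled Ago2-/- had the 4 Y-linked genes above 0. In the other groups neither pattern followed the genotype label. The 4 Y-linked genes were at 23.3, 32.3, 7.77 and 6.03 FPKM in the pool labelled Ago2+/+ thapsigargin. They were listed at 0 in the pools labelled Ago2-/- thapsigargin, Ago2-/- DMSO and Ago2+/+ DMSO. Xist was at 46.6 FPKM in the pool labelled Ago2+/+ DMSO and at 33.5 in that labelled Ago2-/- thapsigargin. It was at 0.011 FPKM in the pool labelled Ago2-/- DMSO and at 0.010 in that labelled Ago2+/+ thapsigargin.

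Both pools carried genes of fibroblasts. Of 10 fibroblast markers, 6 were at 1 FPKM or more in the pool labelled Ago2+/+ tunicamycin and 7 in the pool labelled Ago2-/- tunicamycin. Vim, the intermediate filament of mesenchymal cells, was at 2634 and 952 FPKM. Thy1 was listed at 0 in both groups, and Fap was listed at 0 and at 0.059 FPKM, and Dcn, the matrix proteoglycan decorin, was at 0.19 and 0.12 FPKM, so none of these 3 defining markers reached 1 FPKM. A listed 0 need not mean absence, since Dgcr8, which every cell uses to make microRNAs, was also listed at 0 in all 6 groups. Of 5 markers of smooth muscle or myofibroblasts, 1 reached 1 FPKM in the pool labelled Ago2+/+ tunicamycin and 3 in the other, and their sum was 2.49 against 1800 FPKM. Myh11, the myosin that defines differentiated smooth muscle, was at 0.060 and 0.073 FPKM. The summed markers of leukocytes (1.20 and 1.23 FPKM), endothelium (0.18 and 0.42), skeletal muscle (0.016 and 0) and adipocytes (0.034 and 0.92) were low in both. Those of neural cells were at 0.020 and 18.5 FPKM, almost all of it Map2, and those of epithelium at 1.58 and 12.1 FPKM, almost all of the latter Krt19. The part of other cell types in the results below was not tested. In pools of cells, fewer cells of a type and less RNA per cell cannot be told apart.

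To find how far the pools differed, all counted loci were compared. In the pool labelled Ago2-/- tunicamycin 1119 loci (9.38% of 11928) were higher and 945 (7.92%) lower by at least 2-fold, and 9864 lay within 2-fold. At least a 4-fold step was seen at 369 loci in the higher and 318 in the lower direction. The median difference over all counted loci was -0.0025. The quartiles of the differences were -0.41 and 0.42. Most genes thus had close levels, and a minority differed by orders of magnitude.

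**Figure D1:**
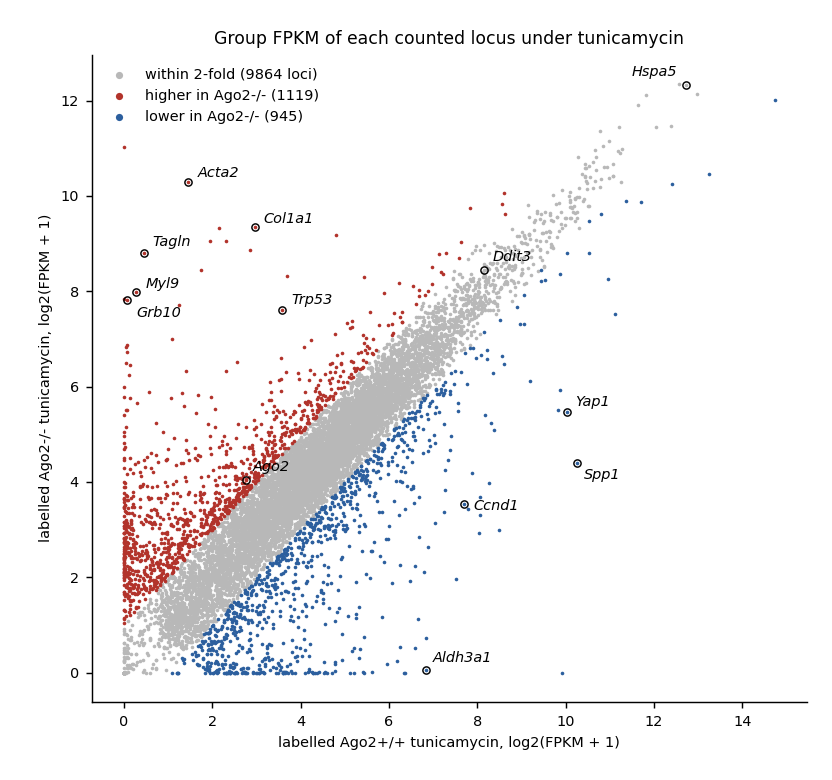
Group FPKM of the 11928 counted loci, as log2(FPKM + 1), in the pool labelled Ago2+/+ tunicamycin (horizontal axis) and in the pool labelled Ago2-/- tunicamycin (vertical axis). Each point is 1 locus with 1 pooled value per group; 1119 red points are higher and 945 blue points lower by at least 2-fold, and circles mark genes named in the text, such as Acta2 far above and Yap1 far below the diagonal.

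Contractile genes were among the largest differences. Of the 15 counted members of a list of 19 smooth muscle contractile genes, 9 were higher in the pool labelled Ago2-/- tunicamycin and 0 lower, where 9.38% of all loci were higher. Their median difference was 1.36. Acta2 (chr19:34241090-34255336, minus strand) encodes the actin of smooth muscle and of myofibroblasts. It was at 1.75 FPKM in the pool labelled Ago2+/+ tunicamycin and at 1252 FPKM in the pool labelled Ago2-/- tunicamycin, a difference of 8.83. Tagln (chr9:45838580-45936058, minus strand), which encodes the actin-binding protein transgelin, was at 0.36 and 444 FPKM. This locus of 97479 bases is longer than the annotated Tagln gene, chr9:45929619-45936058. Myl9 (chr2:156775420-156781658, plus strand), the regulatory light chain of smooth muscle myosin, was at 0.21 and 252 FPKM. Each of these genes was thus near the bottom of the scale in one pool and among the abundant transcripts of the other.

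Other members of the list followed with smaller steps. Cnn1, the calponin that binds actin in smooth muscle, was at 0.054 and 105 FPKM, and Actg2, the enteric smooth muscle actin, at 0.022 and 25.6 FPKM. Lmod1, a leiomodin that starts actin filaments, was at 0.014 and 4.92 FPKM. Tropomyosins, which wind along the actin filament, were abundant in both groups, with Tpm1 at 378 and 912 FPKM and Tpm2 at 46.8 and 188 FPKM. Cnn2, the broadly expressed calponin, was at 101 and 260 FPKM. The 6 members within 2-fold were Des, the intermediate filament of muscle, Srf, Cald1, Smtn, Mkl1 and Actn1, with differences between 0.25 and 0.77. Srf, the transcription factor that drives contractile genes, was at 15.8 and 23.4 FPKM and its partner Mkl1 at 15.7 and 27.2 FPKM. Both regulators thus differed by less than the median of the list. Fhl1, a LIM protein of muscle, and Tgfb1i1, the focal adhesion protein Hic-5, were outside the list and reached 117 FPKM from 0.052 and 74.6 FPKM from 0.077.

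The promoters of the contractile genes were read because serum response factor binds a known motif, the CArG box, upstream of many of them. The box was searched on both strands, where it reads the same, in the 250 bases before the start of each gene in RefSeq (GRCm38.p6). It lay in 482 of 32851 windows of all genes (1.47%). Of 13 windows of 12 counted contractile genes, 3 held it, those of Cnn2, Myl9 and Srf. When 1 base other than A or T was allowed in its centre, 2823 windows (8.59%) and 4 of the 13 held it, and Acta2 was the gene added, with matches that begin at -84 and -34 from its start. Tagln and Actg2 were among the counted members for which no promoter window was matched. Pieces of 2 windows, from the contractile genes Cnn2 and Myl9 that were higher, are shown with the box in capitals. They lie on the plus strand of GRCm38.p6 at chr10:79988514-79988583 and at chr2:156775273-156775404, upstream of the annotated exons of these genes, and the latter of the capital runs of Myl9 has the 1 allowed departure.
Cnn2: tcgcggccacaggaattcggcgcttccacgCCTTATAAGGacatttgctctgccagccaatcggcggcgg
Myl9: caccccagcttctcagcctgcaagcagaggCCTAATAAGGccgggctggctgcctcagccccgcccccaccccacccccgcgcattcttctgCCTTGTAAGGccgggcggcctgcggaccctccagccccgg
Cnn2, with 1 box, differed by 1.36 and Myl9, with a box and a near match, by 7.70, while Srf, with a pair of boxes that begin at -82 and -62, differed by 0.54. A match describes the letters of the window and no binding was measured.

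Collagens and the enzymes that process them formed the next group. Of 16 counted collagen chains, 10 were higher, 4 lower and 2 within 2-fold, with a median difference of 2.61. Of all counted loci, 9.38% were higher and 7.92% lower. Col1a1 (chr11:94936224-94953042, plus strand), a chain of the fibrillar collagen I of skin and bone, was at 6.77 FPKM in the pool labelled Ago2+/+ tunicamycin and at 651 FPKM in the pool labelled Ago2-/- tunicamycin. Its partner chain Col1a2 was at 26.8 and 577 FPKM. The collagen V chain Col5a2, which sets the width of collagen I fibrils, was at 11.9 and 320 FPKM, and Col12a1, which lies on their surface, at 2.18 and 55.3 FPKM. Col11a1, a fibrillar collagen of cartilage, was at 0.0045 and 21.2 FPKM. Of the counted fibrillar chains Col5a1 alone, at 52.8 and 106 FPKM, stayed just within 2-fold. Col6a1, of the beaded filaments, was at 11.7 and 77.6 FPKM. The 4 lower chains were Col8a1 (68.0 and 11.1 FPKM), Col7a1 of anchoring fibrils (31.7 and 7.53), Col18a1 (24.4 and 6.13) and Col4a2 (44.3 and 20.6), and 2 of these, Col18a1 and Col4a2, belong to basement membranes. Col4a1, the partner of Col4a2, was at 56.0 and 32.6 FPKM.

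Of 19 counted genes for collagen hydroxylation, cleavage and crosslinking, 12 were higher and 0 lower, with a median difference of 1.24. Over all counted loci 9.38% were higher and 7.92% lower. Loxl2, a lysyl oxidase that crosslinks collagen, was at 0.040 and 44.8 FPKM, and Loxl3 and Loxl1 of the same family were at 1.25 and 15.2 and at 10.7 and 70.4 FPKM. P3h3, a prolyl 3-hydroxylase, was at 0.098 and 21.6 FPKM. Adamts2, which trims procollagen, was at 0.13 and 9.21 FPKM. P4ha1 and P4ha2, the catalytic subunits of prolyl 4-hydroxylase, which stabilises the collagen helix, were at 22.6 and 75.8 and at 16.4 and 49.5 FPKM. P4hb, the other subunit, also a protein disulfide isomerase of the ER, was at 518 and 605 FPKM, and Serpinh1, the collagen chaperone HSP47, at 562 and 901 FPKM. Pcolce, an enhancer of procollagen cleavage (355 and 313 FPKM), and Loxl4 (35.9 and 32.9 FPKM) were the only members of the list with a difference below 0. The Pcolce locus also holds Fbxo24.

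The remaining matrix genes mostly followed, where 9.38% of all loci were higher and 7.92% lower. Of 14 counted proteoglycans and matrix glycoproteins, 11 were higher and 2 lower, with a median of 1.70. Fbln5, a fibulin needed for elastic fibres, was at 0.034 and 113 FPKM, and Bgn, the small proteoglycan biglycan, at 6.24 and 469 FPKM. Tnc, the wound matrix protein tenascin C, was at 4.89 and 90.1 FPKM, and Postn, periostin, was listed at 0 and at 10.1 FPKM. Against this direction stood Spp1 (chr5:104435118-104441050, plus strand), which encodes the cytokine-like matrix protein osteopontin, at 1214 and 20.1 FPKM. Vcan, the large proteoglycan versican, was at 46.3 and 2.98 FPKM. Of 17 counted matrix proteases and their inhibitors, 10 were higher and 1 lower, with a median of 1.12. Mmp2, a gelatinase, was at 0.52 and 23.5 FPKM, and Adamts5 and Adamts1, which cut proteoglycans, were at 0.11 and 11.6 and at 3.18 and 34.4 FPKM. The lower member was Plaur, the urokinase receptor, at 94.5 and 28.2 FPKM. Of the 5 genes of the CCN family of matricellular proteins, 3 were higher and 0 lower. Ctgf, a target of TGF-beta and of the coactivator YAP1, was at 17.9 and 125 FPKM.

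**Figure D2:**
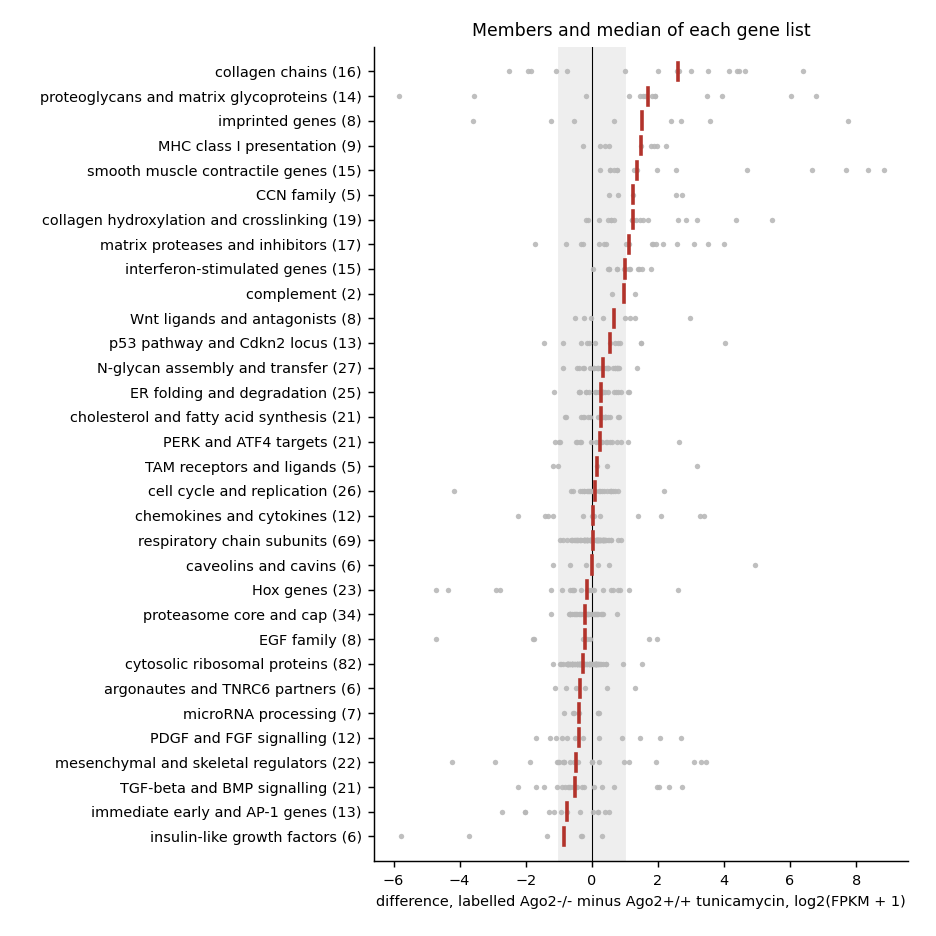
Difference between the labelled groups under tunicamycin, on the log2(FPKM + 1) scale, for each counted member (grey points) of 32 gene lists and the median of each list (red bars). Numbers in brackets are loci counted, the shaded band is the range within 2-fold; lists of matrix, contractile and MHC class I genes have medians above 1, while lists of respiratory chain and proteasome subunits stay near 0.

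Some genes of antigen presentation and of the interferon response were also higher, where 9.38% of all loci were higher and 7.92% lower. Of 9 counted genes of MHC class I presentation, 5 were higher, 4 within 2-fold and 0 lower, with a median of 1.50. H2-K1 and H2-D1, the classical class I heavy chains, were at 18.8 and 76.1 and at 25.2 and 88.9 FPKM, while their light chain B2m was at 217 and 257 FPKM. These heavy chains have close paralogs, between which fragments could be split. Tap1 and Tap2, which carry peptides into the ER, were at 0.11 and 4.28 and at 0.14 and 3.20 FPKM. Tapbp, which holds the class I molecule next to them, lies in 1 locus with Zbtb22, and this locus was at 24.1 and 69.8 FPKM. Its difference was the median of the list. Of 29 interferon-stimulated genes 15 were counted, of which 7 were higher, 8 within 2-fold and 0 lower, with a median of 0.99. Isg15, a ubiquitin-like protein, was at 0.88 and 5.56 FPKM, Ifih1, the sensor of double-stranded RNA MDA5, at 0.075 and 2.06 FPKM, and Ddx58, the sensor RIG-I, at 5.45 and 16.5 FPKM. Most members of that list stayed at low levels in both pools. Among cytokines, Cxcl10, an interferon-induced chemokine, was at 0.43 and 14.2 FPKM and Ccl7 at 1.63 and 24.5 FPKM, whereas Csf1, the macrophage growth factor, was at 271 and 101 FPKM and Il33 at 4.25 and 0.12 FPKM. The list of 12 cytokines held 4 higher and 4 lower members.

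Some lists of growth factors and of transcription factors held both higher and lower members, and others held such members on a single side. Of all loci, 9.38% were higher and 7.92% lower. Of 10 genes of the insulin-like growth factor system 6 were counted, of which 3 were lower and 0 higher, with a median of -0.83. Among those below the minimum, Igf1 was at 0.038 and 3.51 FPKM and Igfbp2 at 0.029 and 1.68 FPKM, the other way, and without the minimum the median was -0.013. The lower members were the binding proteins Igfbp3 (60.7 and 0.14 FPKM), Igfbp6 (26.5 and 1.11) and Igfbp7 (105 and 40.8). Of 13 counted immediate early and AP-1 genes, which respond to growth factors through the ERK kinases, 5 were lower and 0 higher, where 7.92% of all loci were lower. Fosl1, the AP-1 subunit FRA1, was at 165 and 24.3 FPKM, Ier3 at 128 and 30.5 FPKM and Dusp6, the phosphatase of ERK, at 31.6 and 7.09 FPKM. Fos itself was at 4.99 and 3.72 FPKM and Jun at 17.7 and 20.4 FPKM, within 2-fold. In the family of EGF ligands, the growth factor amphiregulin, made by Areg, was at 34.8 and 0.36 FPKM, whereas its relative Ereg was at 0.041 and 3.07 FPKM. That list of 8 held 2 higher and 3 lower members. Of 21 counted genes of TGF-beta and BMP signalling 4 were higher and 4 lower. Id1, a target of BMP signals, was at 117 and 24.0 FPKM, and the ligand Tgfb3 was at 3.97 and 19.5 FPKM. Of 12 genes of PDGF and FGF signalling 3 were higher and 3 lower, with the receptor Pdgfra at 0.49 and 8.72 FPKM and the ligand Fgf7 at 77.5 and 31.6 FPKM. Of 8 counted Wnt genes 3 were higher and 0 lower, and the ligand Wnt5a was at 0.023 and 6.99 FPKM. Of the 5 TAM receptors and ligands, which clear dying cells, Pros1 was higher (0.68 and 14.1 FPKM) and Gas6 and Axl (226 and 111 FPKM) were lower. Of 6 caveolins and cavins, which shape membrane pits, Cavin2 was higher (1.63 and 78.9 FPKM) and Cavin4 lower (12.7 and 5.11). Of 2 counted complement genes C1ra was higher, at 0.38 and 2.43 FPKM.

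Lists of genes that keep a record of a cell's origin held higher and lower members, where 9.38% of all loci were higher and 7.92% lower. Of 23 counted loci of Hox genes, the factors that give cells their place along the body axis, 2 were higher, near that share, and 5 lower. Hoxc8 and Hoxc6 were at 25.1 and 19.6 FPKM in the pool labelled Ago2+/+ tunicamycin and listed at 0 in the other, Hoxc4 was at 6.53 and 0.0041 FPKM, and a single locus with Hoxc5 and Hoxc10 was at 5.94 FPKM and listed at 0. The counted genes of the Hoxc cluster were thus listed at or near 0 in the pool labelled Ago2-/- tunicamycin. Hoxa9 went the other way, at 0.67 and 9.16 FPKM, and Hoxb9 was at 34.0 and 76.1 FPKM. Of 22 other mesenchymal and skeletal regulators 5 were higher and 5 lower. Pax3, a factor of muscle and neural crest precursors, was at 18.1 and 0.0055 FPKM, while Tbx3, Tbx5 and Alx1 were listed at 0 and at 9.88, 8.77 and 7.45 FPKM. Of 8 counted imprinted genes, which are read from 1 parental copy, 4 were higher and 2 lower. Grb10, an adaptor that restrains insulin signalling, was at 0.049 and 223 FPKM, Cdkn1c, an inhibitor of the cell cycle, was listed at 0 and at 11.0 FPKM, and Ndn, necdin, was at 11.2 and 0.011 FPKM.

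Genes of the cell cycle mostly lay within 2-fold, as did 82.7% of all counted loci, with the D cyclins outside it. Of 26 counted genes, 24 lay within 2-fold, and the median was 0.10. Ccnd1, which carries growth signals into the cycle, was at 207 and 10.6 FPKM, and Ccnd2 was at 14.6 and 70.1 FPKM. Mki67, a marker of dividing cells, was at 66.8 and 64.7 FPKM, a nearly equal level. Trp53, which encodes p53, was at 10.9 and 195 FPKM, a difference of 4.03. Of 13 members of the p53 list, 3 were higher and 1 lower, where 9.38% of all loci were higher and 7.92% lower. The higher members were Trp53 itself and its targets Fas, a death receptor (1.34 and 5.52 FPKM), and Trp53inp1 (0.52 and 3.26), and the lower one was Cdkn2b, an inhibitor of the cell cycle. Other targets lay within 2-fold, such as Cdkn1a at 19.6 and 10.2 FPKM, Mdm2 at 22.9 and 37.6 and Bbc3 at 6.97 and 6.19.

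Genes of the ER stress response were within 2-fold about as often as all counted loci, of which 82.7% were. Of 25 counted genes of ER folding and degradation, 22 lay within 2-fold, 2 were higher and 1 lower, with a median of 0.29. Hspa5, which encodes the chaperone BiP, was at 6746 FPKM in the pool labelled Ago2+/+ tunicamycin and 5155 in the pool labelled Ago2-/- tunicamycin. Herpud1, which serves ER-associated degradation, was at 349 and 492 FPKM, and Xbp1, the factor spliced by IRE1, at 74.9 and 131 FPKM. Outside the 2-fold range were Atf6, a stress sensor (68.1 and 30.2 FPKM), Os9, which recognises misfolded glycoproteins (21.0 and 45.5), and Ero1lb, an oxidase (6.77 and 16.0). Of 21 counted targets of PERK and ATF4, 18 lay within 2-fold, 2 were higher and 1 lower, with a median of 0.24. Ddit3 was at 282 and 349 FPKM and Atf4 at 528 and 575 FPKM. Eif2ak3, which encodes the sensor PERK itself, was at 9.09 and 20.8 FPKM, and Vldlr, a lipoprotein receptor, at 3.68 and 28.2 FPKM. The lower member was Stc2, at 13.7 and 5.83 FPKM. Of 27 genes that build or attach N-glycans, 26 lay within 2-fold. Dpagt1, the target of tunicamycin, was at 17.6 and 29.2 FPKM, and Gfpt1, which makes the sugar precursor, passed 2-fold at 30.1 and 79.2 FPKM. In the pools labelled Ago2+/+ DMSO and Ago2-/- DMSO, Hspa5 was at 4808 and 7682 FPKM and Ddit3 at 237 and 339 FPKM. Atf4 was there at 394 and 532 FPKM, Xbp1 at 91.6 and 88.4 FPKM and Herpud1 at 293 and 334 FPKM. Of these, only Herpud1 was lower in both DMSO pools than in both tunicamycin pools. Whether the treatment labels hold was not tested.

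The small RNA machinery and the genes followed up in the study were read next. Of 6 counted Argonaute and TNRC6 genes, Ago2 was higher and Tnrc6a, a scaffold of silencing complexes, lower at 45.3 and 20.1 FPKM. Ago1 was at 10.7 and 14.9 FPKM and Ago3 at 8.72 and 7.34 FPKM. Dicer1, which cuts small RNA precursors, was at 32.0 and 17.5 FPKM. All 7 counted genes of microRNA processing lay within 2-fold, where 82.7% of all counted loci did. C1rl, a complement-like protease, was at 0.27 and 0.78 FPKM, Mertk, a receptor for dying cells, at 0.78 and 0.99 FPKM, and Nov, of the CCN family, at 0.091 and 0.87 FPKM. All 3 were below 1 FPKM in both tunicamycin pools, where a pseudocount of 1 FPKM keeps any difference from reaching 2-fold, so no call could be made for them. C1rl did not reach the mean of 1 FPKM needed to be counted. Rpl19, a ribosomal protein gene that served the study as reference, was at 1467 and 888 FPKM in a locus that holds 2 more transcripts.

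Housekeeping lists gave the least. None of 69 respiratory chain subunits and none of 21 genes of cholesterol and fatty acid synthesis passed 2-fold. Of all counted loci, 82.7% lay within 2-fold. Of 82 cytosolic ribosomal protein genes, 1 was higher and 1 lower, with a median of -0.28. These were Rpl30 (155 and 447 FPKM) and Rpl7 (1777 and 785 FPKM), and both have processed copies that can share their fragments. Of 34 proteasome subunits 1 was lower, Psmd5 at 95.4 and 40.1 FPKM.

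The largest differences are set out with all 6 groups of the series. Among loci that reached 10 FPKM in either tunicamycin pool, the 12 largest in the higher direction held 4 contractile genes, Acta2, Tagln, Myl9 and Cnn1, and matrix genes such as Col1a1 and Fbln5. Ptx3, a pentraxin of innate immunity, was at 0.031 and 89.2 FPKM, and Ptn, the growth factor pleiotrophin, at 0.093 and 87.2 FPKM. The 12 largest in the lower direction held Aldh3a1 (chr11:61207537-61218421, plus strand), an aldehyde dehydrogenase, at 113 and 0.046 FPKM, and Cp, the copper oxidase ceruloplasmin, at 112 and 0.65 FPKM. Cadm1, an adhesion molecule, was at 48.1 and 0.0056 FPKM, Fgfbp1, a carrier of fibroblast growth factors, at 41.6 and 0.015 FPKM, and Tigit, known as a receptor of T cells, at 75.3 and 0.45 FPKM. Prl2c2 (94.5 and 0.42 FPKM) and Ifi202b (42.2 FPKM and listed at 0) have near-identical copies, and their level is uncertain. The level of 3 further loci is uncertain because their RNAs or assembled length are short, and FPKM divides by transcript length. A locus of 65 bases named Nhej1 was at 2085 FPKM in the pool labelled Ago2-/- tunicamycin and listed at 0 in the other 5 groups, and the small nucleolar RNA Snord82 was at 971 FPKM in the pool labelled Ago2+/+ tunicamycin and listed at 0 elsewhere. Snord35a was at 81.6 FPKM in the pool labelled Ago2+/+ tunicamycin and at 55.3 in Ago2+/+ thapsigargin.

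**Figure D3:**
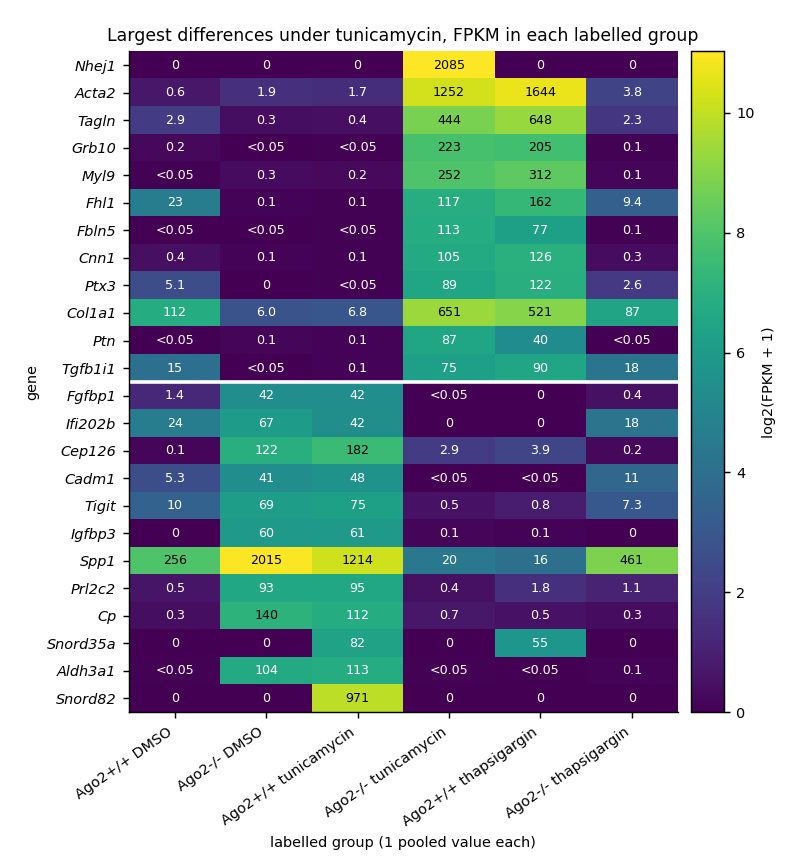
FPKM of the 12 loci with the largest difference in each direction under tunicamycin (rows) in the 6 labelled groups (columns), 1 pooled value each; colour gives log2(FPKM + 1) and the printed number FPKM. Apart from Nhej1 and the small nucleolar RNAs, the column Ago2-/- tunicamycin resembles Ago2+/+ thapsigargin, and the column Ago2+/+ tunicamycin resembles Ago2-/- DMSO.

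Whether the labelled genotypes differed in the same way under the other treatments was then asked. The contrasts under DMSO and under thapsigargin use other libraries and share no group with the tunicamycin contrast. Under DMSO 952 loci (7.98%) were higher and 761 (6.38%) lower in the pool labelled Ago2-/-, and under thapsigargin 666 (5.58%) and 976 (8.18%). Of the 1119 loci higher under tunicamycin, 68 were also higher under DMSO, which is 6.08% of the former list and 7.14% of the latter. A larger number, 370, was lower under DMSO, which is 33.1% and 48.6% of the 2 lists. Of the 945 loci lower under tunicamycin, 24 were lower and 466 higher under DMSO, the latter being 49.3% and 48.9% of the lists. Loci past 2-fold under tunicamycin thus stood on the opposite side under DMSO more often than on the same side.

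Thapsigargin gave the same picture. Of the 1119 higher loci 41 were higher and 451 lower under thapsigargin (40.3% and 46.2% of the lists for the opposite direction). Of the 945 lower loci 64 were lower and 261 higher (27.6% and 39.2%). Acta2 and Aldh3a1 are examples. Acta2 was at 1644 FPKM in the pool labelled Ago2+/+ thapsigargin and at 3.77 in the pool labelled Ago2-/- thapsigargin, while under DMSO it was at 0.64 and 1.92 FPKM. Aldh3a1 was at 0.043 FPKM in the pool labelled Ago2+/+ DMSO and at 104 in the pool labelled Ago2-/- DMSO, and at most at 0.090 FPKM under thapsigargin. The contractile list, with its median of 1.36 under tunicamycin, had medians of 0.044 under DMSO and -2.13 under thapsigargin. For collagens these were -0.55 and -1.36, and for MHC class I genes -1.41 and 0.24. Proteoglycans and matrix glycoproteins, with a median of 1.70 under tunicamycin, had 1.36 under DMSO, the same direction, and -2.43 under thapsigargin. No list with a median of at least 1 under tunicamycin had a median of at least 1 in both of the other contrasts.

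A contrast with both labels exchanged was set beside these. It was chosen because earlier results of these data had shown its pools to resemble the tunicamycin pools, so the overlaps below describe that resemblance and are no independent evidence of it. It subtracts the pool labelled Ago2-/- DMSO from the pool labelled Ago2+/+ thapsigargin, again without a shared library. Each of its pools holds 1 library with conflicting genotype labels, as does the pool labelled Ago2+/+ DMSO. Here 1038 loci (8.70%) were higher and 932 (7.81%) lower. Of the 1119 loci higher under tunicamycin, 880 were higher in it (78.6% and 84.8% of the lists) and 14 lower. Of the 945 lower loci, 750 were lower in it (79.4% and 80.5%) and 8 higher. At 1950 of the 2064 loci past 2-fold (94.5%), the pool labelled Ago2-/- tunicamycin lay within 2-fold of Ago2+/+ thapsigargin and the pool labelled Ago2+/+ tunicamycin within 2-fold of Ago2-/- DMSO, against 98.3% of all counted loci. The tunicamycin differences thus resembled those between 2 groups that bear neither this treatment nor this order of genotypes.

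**Figure D4:**
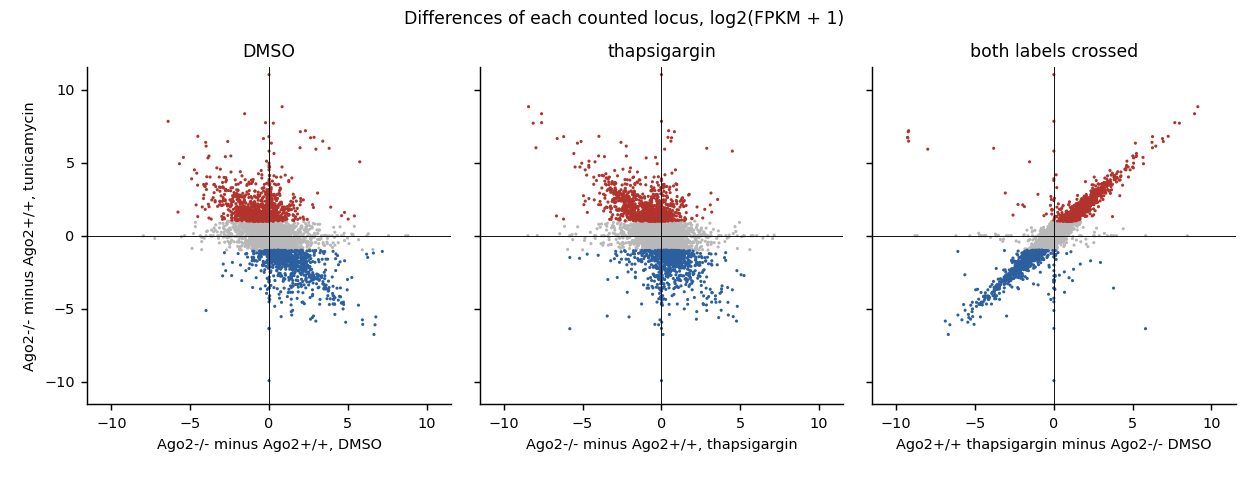
Difference of the 11928 counted loci under tunicamycin (vertical axis, labelled Ago2-/- minus Ago2+/+) against their difference in 3 contrasts that share no group with it (horizontal axes), all on the log2(FPKM + 1) scale. Red and blue points are the 1119 higher and 945 lower loci under tunicamycin; they lean to the opposite sign under DMSO and thapsigargin, and 880 and 750 of them are past 2-fold in the same direction when both labels are exchanged.

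Lower loci also lay side by side on chromosome 9, at a place singled out after its values had been seen. Loci with several symbols and those of predicted genes, pseudogenes, mitochondrial and ribosomal protein genes were left out here. Of the 9 other counted loci from Dync2h1 to Cep126, 7 were lower, with a median of -3.06, where 7.92% of all loci were lower. The 3 such loci before them had a median of 1.92 and the 3 after them of 0.72. Yap1 (chr9:7931999-8004596), the coactivator of the Hippo pathway, was at 1035 and 43.3 FPKM. Dcun1d5, a factor of cullin neddylation, was at 935 and 59.5 FPKM, Dync2h1, the motor of cilia, at 66.0 and 2.66 FPKM, and Cep126, a centrosome protein, at 182 and 2.88 FPKM. Mmp8 and Mmp27, matrix proteases, were at 4.14 and 7.33 FPKM and listed at 0 in the pool labelled Ago2-/- tunicamycin. Birc2 and Birc3, inhibitors of apoptosis, differed less, at 35.3 and 16.2 and at 17.6 and 9.29 FPKM, and Tmem123 in their midst was at 32.5 and 53.5 FPKM. The levels were high in a pair of groups only. In the pool labelled Ago2-/- DMSO Yap1 was at 972 FPKM, and in the other 4 groups, that labelled Ago2-/- tunicamycin included, between 34.7 and 43.3 FPKM. DNA was not measured, and the number of gene copies was not tested.

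**Figure D5:**
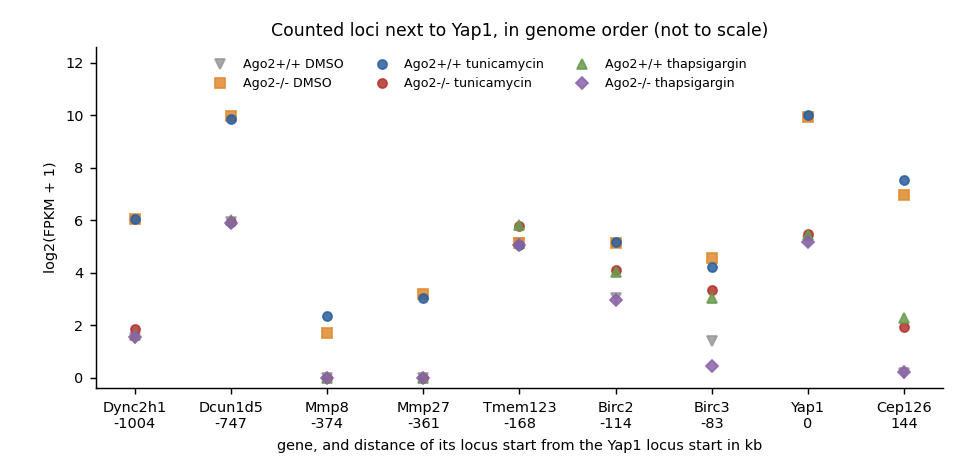
Level, as log2(FPKM + 1), of counted loci from Dync2h1 to Cep126 on chromosome 9 in each of the 6 labelled groups, 1 pooled value each. Loci with several symbols and those of predicted genes, pseudogenes, mitochondrial and ribosomal protein genes are left out. Loci stand in genome order with the distance of each locus start in kb from that of Yap1. The groups labelled Ago2+/+ tunicamycin and Ago2-/- DMSO lie together above the other 4 groups at nearly every gene, and Tmem123 is an exception.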

How the data were processed

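Per the labels and the study's methods, the authors extracted total RNA, aligned reads with HISAT2 2.1.0 to GRCm38 (Ensembl release 91), assembled transcripts with StringTie 1.3.4d and quantified them with Cuffdiff 2.2.1; FastQC 0.11.7 is also named in the submitters' processing notes. The deposited FPKM is 1 value per locus and group, pooled by the authors over 3 libraries, in 772485 rows for 15 pairs of groups. The table also holds log2 ratios, test statistics, p and q of the authors' own comparisons, which were not used. Strandedness and library scaling are stated in none of the sources. The protocol text of the labels names thapsigargin for all libraries, so treatment was taken from titles and sources. Titles and table call the libraries labelled Ago2+/+ DCR1.

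Differences of log2(FPKM + 1) were computed with Python 3.11.15 and pandas 2.3.3. Loci with a mean under 1 FPKM over the 6 groups and 2 loci with a failed status (Fn1 among them) were left out. Of the genes in 33 lists, 126 were under that minimum and 4 had no locus of that name. Whole reads were not recovered, since for the best read size only 25.7% to 41.0% of the low values of a group came within 0.1 of a whole number, against 20% for values without any such size, so the depth and its precision are unknown. Without values per library no replicate test could be computed here, so no p, SD or interval is given. Named genes were the label checks, the genes the study followed, 5 stress genes, the 12 largest differences in each direction among loci with at least 10 FPKM in either pool and a single symbol (predicted genes, pseudogenes, mitochondrial and ribosomal protein genes left out), and up to 6 members per list with the largest difference or a defining role. The members, lists and alternatives were chosen with earlier results of these data known. Other list members are named where a function is described. Start positions in the table count from 0 and were raised by 1, after which 34853 of 50130 loci began where GENCODE begins the gene of the same identifier, against 70 before. Only the count of loci past 2-fold was tried on simulated pools with large planted changes. That trial checks the code and not the data, and the other steps were not tried.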

Additional observations from a re-analysis of the deposited data

Results flagged for a closer look

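Each value here is a difference under tunicamycin minus that under another treatment, both labelled Ago2-/- minus labelled Ago2+/+ on the log2(FPKM + 1) scale. They are given because the difference changed sign between treatments, with a list median of at least 1 on either side. With 1 pooled value for a group, the change between treatments was not tested. Against thapsigargin the value was 3.49 for smooth muscle contractile genes, 3.97 for collagen chains, 4.14 for proteoglycans and matrix glycoproteins, 2.75 for matrix proteases and inhibitors, 3.40 for the CCN family, 4.37 for imprinted genes and 6.30 for sex-linked genes. Against DMSO it was 2.90 for MHC class I presentation and 3.10 for Ago2 itself.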

How the results depend on the processing

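The 2064 loci past 2-fold became 1028 with a pseudocount of 5 (527 higher and 501 lower), 1245 with a mean of at least 5 FPKM (625 and 620), 1325 with at least 1 FPKM in both tunicamycin pools (668 of them higher) and 687 at a fold of 4 (369 and 318). The share of them that was higher stayed between 50.2% and 57.3% under all alternatives for the count. With a pseudocount of 0.1 the median difference was 1.94 for matrix proteases, 1.58 for interferon-stimulated genes, 1.72 for complement, 2.35 for the CCN family, 2.43 for imprinted genes and 6.33 for sex-linked genes. Without a filter on low values it was 0.77 for contractile genes, 1.51 for collagens, 0.40 for matrix proteases, 0.17 for complement, -0.013 for insulin-like growth factors and 0 for imprinted genes, since members at or near 0 in both pools then count. The other 107 recomputed values moved by less than 1.5-fold, and 96 of 99 list medians kept their sign, the exceptions being imprinted genes, cytokines and mesenchymal regulators without the filter. The search with 1 departure in the CArG box was added after seeing the data. No paired analysis was possible because the deposited table holds pooled groups without replicate numbers, and leaving out a library, such as the 1 of these 6 or the 4 of all 18 with conflicting labels, was not run for the same reason. Depth being unknown, values near 0 FPKM cannot be ranked.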
